A study of Mus musculus with 12 samples.

Results

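Enzymes that handle glutathione, peroxides and thioredoxin were followed through the conversion of mouse embryonic fibroblasts to adipocytes, in D1D2KO cells, labelled as knockouts of DGAT1 and DGAT2, the enzymes of the last step of triacylglycerol synthesis, and in wild-type (WT) cells. The 64 genes were chosen by symbol: glutathione transferases, microsomal transferases, glutathione peroxidases, peroxiredoxins, thioredoxins and thioredoxin-domain proteins, the superoxide dismutases, quinone reductases and haem oxygenases, and the enzymes that make and reduce glutathione. They were read among 19938 genes of a single-colour whole-transcript array, 1 probe set for each gene. Of 75 probe sets with a matching symbol, 6 listed several genes, among them Gstp2 and Gsta1, and were left out. Prdx5 and Prdx6 itself were not among the 64 genes, and Prdx6-ps2 is annotated as a pseudogene.

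The arrays held 4 groups of 3 samples, namely differentiated D1D2KO, undifferentiated D1D2KO, differentiated WT and undifferentiated WT cells, all labelled strain C57BL6 and grown in DMEM with serum from embryos of embryonic day 14. Differentiated cells had been taken to confluence and given a mix of 1 µM dexamethasone, 500 µM isobutylmethylxanthine, 15 µM troglitazone and 5 µg/ml insulin. They next received only the last pair of agents, and lastly plain medium until harvest. The samples are called biological replicates without naming the embryo or culture of each, so p-values reflect the spread among these samples, which may be technical. The sources used here do not say whether the genotypes were littermates. Values are log2 array signals, changes carry the standard error (SE) from limma, and "called" means an adjusted p under 0.05 (Benjamini-Hochberg, all 19938 genes).

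Samples of 1 group correlated at 0.993 to 0.997 across genes. Dgat1 read 7.75 to 8.26 in differentiated D1D2KO cells against 9.33 to 9.53 in differentiated WT cells, and 5.56 to 5.66 in undifferentiated D1D2KO cells against 6.93 to 6.98 in undifferentiated WT cells. Dgat2 read 8.37 to 8.66 in differentiated D1D2KO cells against 9.86 to 10.53 in differentiated WT cells, and 5.44 to 5.51 in undifferentiated D1D2KO cells against 5.94 to 5.98 in undifferentiated WT cells. D1D2KO samples were below WT samples of the same state for both targeted genes. The labels do not say whether these probe sets lie inside the deleted sequence, and the deletion itself was not checked. All 9 adipocyte markers rose on differentiation in both genotypes. All 4 smooth muscle markers were called lower in D1D2KO than in WT cells in each state. Macrophage markers were present in every group and fell on differentiation, 7 of 8 in each genotype. Neural and glial markers fell too, 6 of 6 in D1D2KO and 5 of 6 in WT cells. So did fibroblast markers, 8 of 9 in D1D2KO and 7 of 9 in WT cells, and smooth muscle markers, 4 of 4 and 3 of 4. Of 4 endothelial markers, Pecam1 (group means 4.24 to 4.37) and Cdh5 (4.63 to 4.69) were dim beside a lower quartile of the arrays of 4.10 to 4.26, while Kdr (4.86 to 5.95) and Tek (4.84 to 6.20) were brighter and fell on differentiation in both genotypes, and Tek was called higher in D1D2KO than in WT cells in each state.

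Glutathione is a tripeptide thiol that glutathione peroxidases oxidise to remove peroxides, that transferases couple to reactive compounds, and that glutathione reductase returns to its reduced form with NADPH. Peroxiredoxins remove peroxides with electrons from thioredoxin, which thioredoxin reductase recharges, also with NADPH. Mitochondria hold their own superoxide dismutase, peroxiredoxin, thioredoxin and thioredoxin reductase, encoded by genes separate from those of the cytosolic proteins. Fat cells carry much NADPH and lipid, and several of these genes are known targets of the transcription factor NRF2 at antioxidant response elements.

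In D1D2KO cells 43 of the 64 genes changed on differentiation, 31 up and 12 down, where 36.7% of all genes were called, 15.4% up and 21.2% down. In WT cells 41 were called, 28 up and 13 down, against 34.1% of all genes, 14.7% up and 19.4% down. The median change was 0.24 in D1D2KO and 0.16 in WT cells, beside 0.01 and 0.02 over all genes. These counts come from bulk samples, in which fewer cells of a type and less RNA per cell cannot be told apart. The genes that rose in both genotypes numbered 27, which is 87.1% of the D1D2KO rises and 96.4% of the WT rises, where over all genes the shares were 71.5% and 74.9%. Falls in both numbered 11, or 91.7% of the D1D2KO falls and 84.6% of the WT falls, against 77.6% and 85.2% over all genes, and 0 genes were called in opposite directions. Called in 1 genotype were Gstm7, Hmox2, Prdx6-ps2 and Txndc9 (up) and Txnip (down) in D1D2KO cells, and Gsto1 (up) and Gstm6 and Nqo1 (down) in WT cells, and for none of them did the difference between the responses pass the test. Not called in any of 5 comparisons were 17 genes, among them Gclc, Prdx1, Prdx2, Sod3, Txn1 and Nqo2. Signals of 14 of the 64 genes averaged under the median of all genes (6.05) and 6 under the lower quartile (4.57), namely Gpx2, Gpx5, Gpx6, Gstm6, Gstt4 and Txndc8, where low signal cannot be told from background. The plot of changes by gene shows called rises in every class, and called falls beside them in several.

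**Figure D1:**
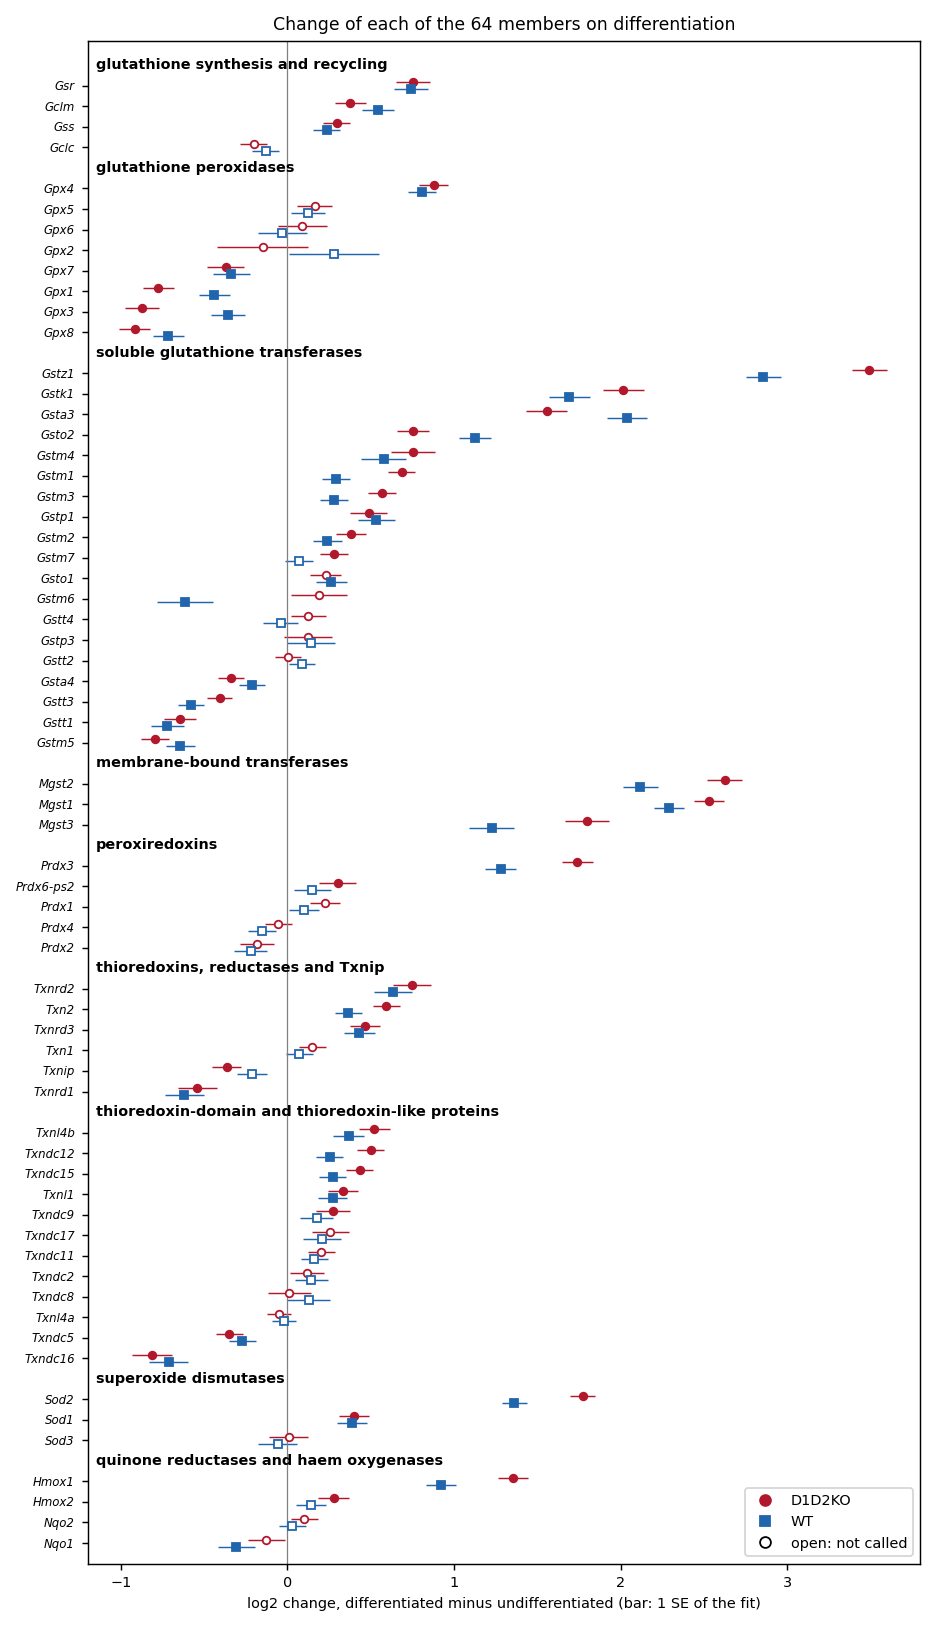
Change of each of the 64 genes on differentiation, as the log2 difference of differentiated minus undifferentiated cells on the x axis, in D1D2KO (red circles) and WT cells (blue squares), grouped by role. Bars are 1 SE of the fit with 3 samples per group, and open symbols did not pass the test; Gstz1 lies farthest right at 3.49 in D1D2KO and 2.86 in WT cells, and Gpx8 lowest in D1D2KO cells at -0.92.

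The promoters of 6 of these genes are shown because 5 of them hold the core of the antioxidant response element and these 5 did not all move one way. The core was searched as TGACNNNGC on both strands in the 250 bases before each start listed by RefSeq on GRCm38.p6. Of 27025 genes with a listed promoter 3112 held it (11.5%), and among the 55 genes here with an entry, 11 did (20.0%), namely Gclm, Gsta3, Gstm5, Gstm7, Mgst1, Prdx1, Sod1, Txndc11, Txndc2, Txndc5 and Txnrd1. Not looked up were Gclc, Gsr, Gsta4, Gstt2, Hmox1, Prdx6-ps2, Sod3, Txnl1 and Txnl4a. Of the 11 genes with the core, 5 rose, 3 fell and 3 were not called on differentiation in D1D2KO cells, and 4 rose, 3 fell and 4 were not called in WT cells. Of the 44 without it, 22 rose and 8 fell in D1D2KO cells, and 21 rose and 9 fell in WT cells. A match describes letters and is not a tested site. Sequence outside the 250 bases was not searched, so a gene without a match here may hold the core elsewhere. The windows, all on the plus strand and 5′ to 3′, are Mgst1 at chr6:138140277-138140526, Gsta3 at chr1:21240335-21240584, Gclm at chr3:122245307-122245556, Sod1 at chr16:90220512-90220761, Gstm5 at chr3:107895604-107895853 and Gstz1 at chr12:87146915-87147164, with the core in capitals. For Mgst1 and Gstz1, which have 2 listed starts, the window of the more upstream start is shown. The core begins 56 bases before the start in Mgst1 and in Sod1, 134 before it in Gclm, 121 before it in Gsta3 and 42 before it in Gstm5. It reads as TGACNNNGC on the printed strand in Gsta3 and Gstm5 and on the opposite strand in Mgst1, Gclm and Sod1. Gstz1, the gene with the greatest rise, has no match in its window.
Mgst1: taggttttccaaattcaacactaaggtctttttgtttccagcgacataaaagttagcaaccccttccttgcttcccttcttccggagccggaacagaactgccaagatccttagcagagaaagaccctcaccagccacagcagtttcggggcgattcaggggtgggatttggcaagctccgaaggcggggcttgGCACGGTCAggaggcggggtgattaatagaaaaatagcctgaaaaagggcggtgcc
Gsta3: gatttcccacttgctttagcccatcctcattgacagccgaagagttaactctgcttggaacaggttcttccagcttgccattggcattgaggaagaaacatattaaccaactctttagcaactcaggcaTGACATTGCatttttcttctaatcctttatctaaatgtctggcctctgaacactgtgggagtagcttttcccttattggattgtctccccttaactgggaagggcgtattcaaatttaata
Gclm: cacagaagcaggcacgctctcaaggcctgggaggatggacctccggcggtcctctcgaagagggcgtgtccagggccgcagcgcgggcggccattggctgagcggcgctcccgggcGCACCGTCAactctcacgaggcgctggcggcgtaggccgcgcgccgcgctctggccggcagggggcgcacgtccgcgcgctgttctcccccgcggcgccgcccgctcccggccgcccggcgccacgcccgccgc
Sod1: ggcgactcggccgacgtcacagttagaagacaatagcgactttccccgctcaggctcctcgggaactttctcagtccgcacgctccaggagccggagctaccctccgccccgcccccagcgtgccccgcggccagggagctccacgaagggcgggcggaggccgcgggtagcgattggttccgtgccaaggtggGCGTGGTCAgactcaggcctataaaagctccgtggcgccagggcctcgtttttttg
Gstm5: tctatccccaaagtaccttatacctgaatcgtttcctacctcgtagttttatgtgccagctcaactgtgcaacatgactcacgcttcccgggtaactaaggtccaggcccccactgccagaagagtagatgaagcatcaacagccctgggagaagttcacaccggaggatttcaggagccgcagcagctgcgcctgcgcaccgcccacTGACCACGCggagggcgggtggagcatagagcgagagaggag
Gstz1: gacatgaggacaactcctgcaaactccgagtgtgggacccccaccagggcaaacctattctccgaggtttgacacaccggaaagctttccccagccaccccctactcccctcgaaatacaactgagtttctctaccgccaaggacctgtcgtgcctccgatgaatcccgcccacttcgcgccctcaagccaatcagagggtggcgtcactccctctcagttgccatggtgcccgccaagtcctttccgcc

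Of 4 genes that make or recycle glutathione, 3 rose in each genotype. Gsr, glutathione reductase, read 7.91, 7.97 and 7.85 in differentiated and 7.10, 7.32 and 7.05 in undifferentiated D1D2KO cells, and 8.04, 8.37 and 7.995 in differentiated and 7.40, 7.46 and 7.32 in undifferentiated WT cells. The states did not overlap in either genotype, and Gsr rose by 0.75 in D1D2KO (SE 0.10; limma, Benjamini-Hochberg adjusted p = 1.15e-05) and 0.74 in WT cells (adjusted p = 1.82e-05). Gclm, the modifier subunit of glutamate-cysteine ligase whose promoter is printed above, read 7.94, 7.87 and 7.99 in differentiated and 7.57, 7.56 and 7.54 in undifferentiated D1D2KO cells, and 8.05, 8.47 and 8.16 in differentiated and 7.74, 7.67 and 7.64 in undifferentiated WT cells. It rose by 0.38 in D1D2KO (SE 0.09; limma adjusted p = 0.00411) and 0.54 in WT cells (adjusted p = 0.000223), while the catalytic subunit Gclc changed by -0.20 in D1D2KO and -0.13 in WT cells and was not called (limma adjusted p = 0.0557 and 0.229). Gss, glutathione synthetase, read 7.36, 7.29 and 7.21 in differentiated and 7.002, 7.09 and 6.88 in undifferentiated D1D2KO cells, and 7.33, 7.49 and 7.40 in differentiated and 7.11, 7.23 and 7.17 in undifferentiated WT cells. Its rises of 0.30 and 0.24 (SE 0.08) were small. The D1D2KO call of Gss ended without undifferentiated D1D2KO replicate 3 (limma adjusted p = 0.0522), and the WT call without undifferentiated WT replicate 1 (0.122) or 3 (0.0721), or differentiated WT replicate 2 (0.102) or 3 (0.0682). None of the 4 genes was called between the genotypes by limma. At an unadjusted limma p under 0.05, 3 were lower in differentiated and 2 in undifferentiated D1D2KO than in WT cells. Over all genes 14.3% were lower in differentiated and 11% in undifferentiated D1D2KO cells at that threshold.

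Glutathione peroxidases divided, with 1 rise and 4 falls among 8 genes in each genotype. Gpx4, which reduces phospholipid hydroperoxides within membranes, read 10.60, 10.55 and 10.40 in differentiated and 9.61, 9.63 and 9.68 in undifferentiated D1D2KO cells, and 10.51, 10.43 and 10.66 in differentiated and 9.67, 9.70 and 9.82 in undifferentiated WT cells. It rose by 0.88 in D1D2KO and 0.81 in WT cells (SE 0.09; limma adjusted p = 2.38e-07 and 9.38e-07), and a further Gpx4 probe set gave 0.86 and 0.79.

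The 3 falling peroxidases with the largest changes were also the ones called lower in differentiated D1D2KO than in differentiated WT cells. Gpx1, the cytosolic enzyme, read 8.38, 8.33 and 8.30 in differentiated and 9.14, 9.13 and 9.07 in undifferentiated D1D2KO cells, and 8.82, 9.06 and 8.73 in differentiated and 9.23, 9.45 and 9.25 in undifferentiated WT cells. Gpx3, the secreted plasma enzyme, read 8.80, 8.89 and 8.93 in differentiated and 9.75, 9.67 and 9.83 in undifferentiated D1D2KO cells, and 9.18, 9.52 and 9.09 in differentiated and 9.71, 9.58 and 9.58 in undifferentiated WT cells. Gpx8, anchored in the endoplasmic reticulum membrane, read 9.27, 9.24 and 9.15 in differentiated and 10.25, 10.16 and 10.00 in undifferentiated D1D2KO cells, and 9.43, 9.73 and 9.51 in differentiated and 10.20, 10.29 and 10.33 in undifferentiated WT cells. For all 3 genes differentiated samples lay below undifferentiated ones in both genotypes, and the differentiated D1D2KO samples were the lowest of the 4 groups.

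**Figure D2:**
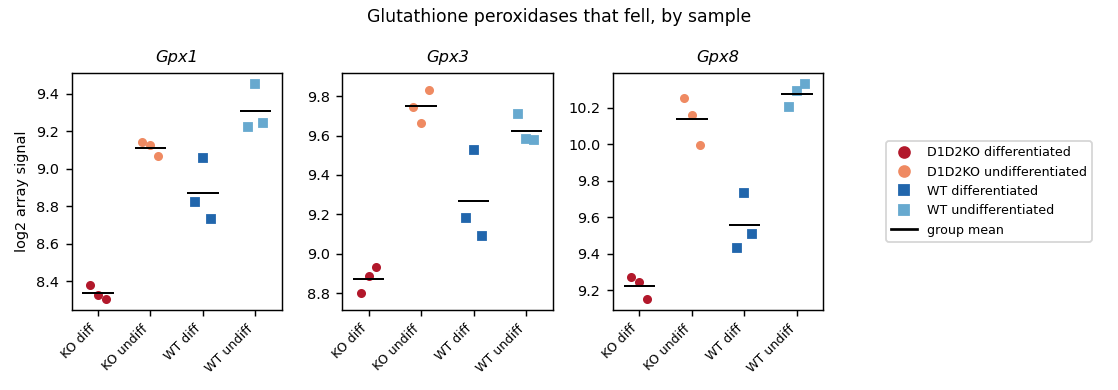
Log2 array signal (y axis) of Gpx1, Gpx3 and Gpx8 in each sample of the 4 groups (x axis), with a bar at each group mean; D1D2KO samples are circles and WT samples squares. The differentiated D1D2KO samples, at 8.30 to 8.38, 8.80 to 8.93 and 9.15 to 9.27, lie below every other sample of the same gene.

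Gpx1 fell by 0.78 in D1D2KO and 0.44 in WT cells (SE 0.09; limma adjusted p = 2.70e-06 and 0.00119), and Gpx8 by 0.92 and 0.72 (SE 0.09; adjusted p = 4.28e-07 and 1.06e-05). Gpx3 fell by 0.87 in D1D2KO cells (SE 0.10; limma adjusted p = 2.14e-06) and by 0.36 in WT cells (adjusted p = 0.0112), a WT call that ended without WT undifferentiated replicate 1 (0.0555) or WT differentiated replicate 3 (0.0682). The difference between the Gpx3 responses, -0.52, did not pass (limma adjusted p = 0.0977), nor did that of Gpx1, -0.34 (adjusted p = 0.294). Gpx7, an enzyme of the endoplasmic reticulum lumen, fell by 0.37 in D1D2KO and 0.34 in WT cells (SE 0.11; limma adjusted p = 0.0137 and 0.0262). Its D1D2KO call ended without D1D2KO differentiated replicate 2 (limma adjusted p = 0.0510), and its WT call without undifferentiated WT replicate 2 (0.135) or 3 (0.0523), or differentiated WT replicate 3 (0.158). Gpx2, Gpx5 and Gpx6, known from gut, epididymis and olfactory tissue, were dim in all groups and not called.

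Among 19 soluble glutathione transferases 10 rose and 4 fell in D1D2KO cells, and 10 rose and 5 fell in WT cells. Gstz1, the maleylacetoacetate isomerase of tyrosine breakdown, read 10.23, 10.24 and 9.84 in differentiated and 6.60, 6.73 and 6.501 in undifferentiated D1D2KO cells, and 9.69, 9.66 and 9.79 in differentiated and 6.91, 6.89 and 6.78 in undifferentiated WT cells. It rose 11.3-fold in D1D2KO cells (3.49, SE 0.10; limma adjusted p = 8.57e-14) and 7.25-fold in WT cells (2.86; adjusted p = 1.72e-12). Its response was the only one of the 64 called as different between the genotypes, by 0.64 (SE 0.15; limma adjusted p = 0.0421). That is 1.56% of the 64 genes, where 1.46% of all genes were called. At an unadjusted p under 0.05 the difference was positive for 10 and negative for 4 of the 64 genes, where 5.38% of all genes were positive and 5.85% negative. The differentiated D1D2KO level was 0.39 above WT (limma adjusted p = 0.0233) and the undifferentiated one 0.25 below it (-0.25, not called, adjusted p = 0.140). The call of the difference ended without any of 9 of the 12 samples, with limma adjusted p from 0.0615 without WT undifferentiated replicate 3 to 0.129 without D1D2KO undifferentiated replicate 3, and held without WT differentiated replicate 3, D1D2KO undifferentiated replicate 2 or D1D2KO differentiated replicate 3. The call between differentiated groups ended with only the 2 groups compared (0.0714) and without WT differentiated replicate 2 (0.0809) or D1D2KO differentiated replicate 1 (0.0821) or 2 (0.0855).

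Gstk1, the kappa-class transferase of mitochondria and peroxisomes, read 7.81, 7.77 and 7.33 in differentiated and 5.63, 5.65 and 5.58 in undifferentiated D1D2KO cells, and 7.601, 7.98 and 7.65 in differentiated and 5.92, 6.15 and 6.08 in undifferentiated WT cells. It rose 4.04-fold in D1D2KO and 3.23-fold in WT cells (2.02 and 1.69, SE 0.12; limma adjusted p = 7.02e-10 and 9.84e-09). Gsta3, an alpha-class enzyme with the core in its promoter, read 7.76, 7.79 and 7.25 in differentiated and 6.05, 6.21 and 5.87 in undifferentiated D1D2KO cells, and 7.71, 7.65 and 7.77 in differentiated and 5.63, 5.73 and 5.66 in undifferentiated WT cells. It rose 2.94-fold in D1D2KO and 4.11-fold in WT cells (1.56 and 2.04, SE 0.12; limma adjusted p = 1.76e-08 and 9.49e-10), a difference in response of -0.48 that did not pass the test (adjusted p = 0.241). Differentiated and undifferentiated samples of both genes stood well apart, in each genotype.

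Other soluble transferases moved less. Gstp1, the pi-class enzyme, read 9.80, 9.43 and 9.34 in differentiated and 9.09, 8.97 and 9.04 in undifferentiated D1D2KO cells, and 9.44, 9.71 and 9.66 in differentiated and 8.96, 9.07 and 9.16 in undifferentiated WT cells, rises of 0.49 and 0.53 (SE 0.11; limma adjusted p = 0.00192 and 0.00108). Probe sets that list both Gstp1 and Gstp2 gave 0.53 and 0.57 in D1D2KO and 0.49 and 0.51 in WT cells, and transcripts of near-identical copies may bind the same probes. Gsto2, an omega-class enzyme that reduces dehydroascorbate, rose by 0.76 in D1D2KO and 1.13 in WT cells (SE 0.10; limma adjusted p = 6.02e-06 and 7.75e-08). The related Gsto1 read 9.25, 9.198 and 9.07 in differentiated and 9.002, 9.08 and 8.76 in undifferentiated D1D2KO cells, which overlap, and 9.10, 9.23 and 9.17 in differentiated and 8.82, 8.99 and 8.90 in undifferentiated WT cells. Its changes were 0.23 (limma adjusted p = 0.0638) and 0.26 (adjusted p = 0.0364), and the WT call ended without undifferentiated WT replicate 1 (0.141) or 3 (0.0755), or differentiated WT replicate 2 (0.0971) or 3 (0.0772). The theta-class genes Gstt1 and Gstt3 fell, by 0.64 and 0.41 in D1D2KO and by 0.72 and 0.58 in WT cells (limma adjusted p = 4.52e-05, 0.000317, 1.80e-05 and 1.08e-05). Gsta4, which conjugates the lipid peroxidation product hydroxynonenal, fell by 0.34 in D1D2KO cells (SE 0.08; limma adjusted p = 0.00174) and was -0.21 in WT cells, where the call (adjusted p = 0.0407) ended without undifferentiated WT replicate 1 (0.0619), 2 (0.151) or 3 (0.0639), or differentiated WT replicate 1 (0.0757) or 2 (0.101). The alpha-class probe sets shared by Gsta1 and Gsta2 were dim, with means of 3.14 to 4.72.

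The membrane-bound transferases Mgst1, Mgst2 and Mgst3 all rose in both genotypes. Mgst1, which acts in the outer mitochondrial and endoplasmic reticulum membranes, read 10.96, 11.02 and 10.69 in differentiated and 8.32, 8.44 and 8.32 in undifferentiated D1D2KO cells, and 10.69, 10.76 and 10.78 in differentiated and 8.37, 8.46 and 8.52 in undifferentiated WT cells. It rose 5.78-fold in D1D2KO and 4.90-fold in WT cells (2.53 and 2.29, SE 0.09; limma adjusted p = 8.25e-13 and 4.36e-12), with overlapping genotypes in each state. Mgst2, which can make leukotriene C4 in other cells, read 7.75, 7.64 and 7.97 in differentiated and 5.02, 5.22 and 5.25 in undifferentiated D1D2KO cells, and 6.95, 7.06 and 7.29 in differentiated and 4.97, 4.93 and 5.05 in undifferentiated WT cells. It rose 6.17-fold in D1D2KO and 4.34-fold in WT cells (2.62 and 2.12, SE 0.10; limma adjusted p = 3.25e-12 and 7.84e-11), and every differentiated D1D2KO sample lay above every differentiated WT sample. Mgst3, a relative with peroxidase activity, read 8.28, 7.98 and 7.66 in differentiated and 6.10, 6.30 and 6.13 in undifferentiated D1D2KO cells, and 7.59, 7.36 and 7.58 in differentiated and 6.37, 6.07 and 6.41 in undifferentiated WT cells. It rose 3.48-fold in D1D2KO and 2.34-fold in WT cells (1.80 and 1.23, SE 0.13; limma adjusted p = 7.98e-09 and 1.31e-06), and only its differentiated genotypes stood apart. The differences in response were 0.51 for Mgst2 and 0.57 for Mgst3, which did not pass the threshold (limma adjusted p = 0.114 and 0.178).

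**Figure D3:**
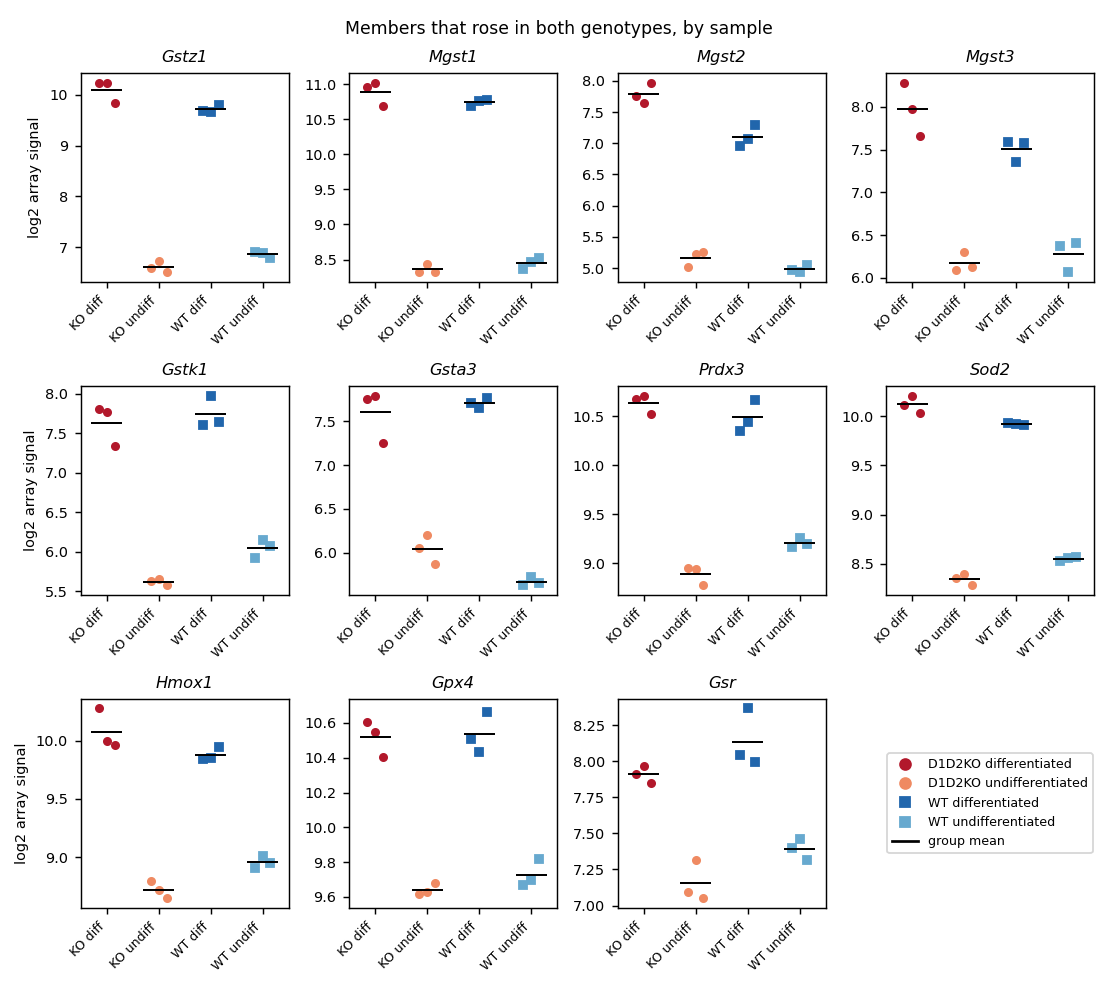
Log2 array signal (y axis, a separate scale for each gene) of 11 genes that rose in both genotypes, in each sample of the 4 groups (x axis), with a bar at each group mean; D1D2KO samples are circles and WT samples squares. Differentiated and undifferentiated samples do not overlap in any panel, and the differentiated D1D2KO samples of Mgst2, at 7.64 to 7.97, lie above the differentiated WT samples, at 6.95 to 7.29.

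Of 5 peroxiredoxin genes, Prdx3, a mitochondrial enzyme, was the one with a large change. It read 10.67, 10.71 and 10.52 in differentiated and 8.95, 8.94 and 8.78 in undifferentiated D1D2KO cells, and 10.35, 10.44 and 10.67 in differentiated and 9.16, 9.26 and 9.19 in undifferentiated WT cells. Prdx3 rose 3.34-fold in D1D2KO and 2.43-fold in WT cells (1.74 and 1.28, SE 0.09; limma adjusted p = 1.51e-10 and 1.06e-08), and the difference in response, 0.46, did not pass the test (adjusted p = 0.106). The cytosolic Prdx1 read 10.07, 10.14 and 10.05 in differentiated and 9.87, 9.86 and 9.86 in undifferentiated D1D2KO cells, and 9.90, 10.25 and 10.25 in differentiated and 10.03, 10.07 and 10.00 in undifferentiated WT cells. Prdx2, also cytosolic, read 10.39, 10.41 and 10.13 in differentiated and 10.51, 10.58 and 10.39 in undifferentiated D1D2KO cells, and 10.23, 10.55 and 10.50 in differentiated and 10.69, 10.63 and 10.63 in undifferentiated WT cells. Neither was called, at 0.23 and 0.10 for Prdx1 (limma adjusted p = 0.0620 and 0.437) and -0.18 and -0.22 for Prdx2 (adjusted p = 0.179 and 0.105). Prdx4, of the endoplasmic reticulum, was -0.06 in D1D2KO and -0.15 in WT cells, not called. The pseudogene Prdx6-ps2 read 6.37, 6.61 and 6.76 in differentiated and 6.29, 6.33 and 6.22 in undifferentiated D1D2KO cells. Its change of 0.30 was called (limma adjusted p = 0.0420), but not without D1D2KO undifferentiated replicate 1 (0.0874), 2 (0.0634) or 3 (0.121), or D1D2KO differentiated replicate 2 (0.101) or 3 (0.186). In WT cells it was 0.15 and not called.

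Of 3 superoxide dismutases 2 rose in each genotype. Sod2, of the mitochondrial matrix, read 10.12, 10.21 and 10.03 in differentiated and 8.36, 8.40 and 8.28 in undifferentiated D1D2KO cells, and 9.93, 9.92 and 9.91 in differentiated and 8.53, 8.56 and 8.57 in undifferentiated WT cells. It rose 3.42-fold in D1D2KO and 2.57-fold in WT cells (1.77 and 1.36, SE 0.07; limma adjusted p = 7.10e-12 and 3.08e-10). The cytosolic Sod1 read 11.50, 11.62 and 11.72 in differentiated and 11.35, 11.19 and 11.10 in undifferentiated D1D2KO cells, and 11.60, 11.48 and 11.46 in differentiated and 11.08, 11.10 and 11.19 in undifferentiated WT cells. It rose by 0.40 in D1D2KO and 0.39 in WT cells (SE 0.09; limma adjusted p = 0.00140 and 0.00216). Sod3, the extracellular enzyme, was 0.01 and -0.06 and not called.

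Among thioredoxins, their reductases and Txnip, 3 of 6 rose and 2 fell in D1D2KO cells, and 3 rose and 1 fell in WT cells. Txn2, the mitochondrial thioredoxin, read 9.19, 9.15 and 9.17 in differentiated and 8.52, 8.55 and 8.66 in undifferentiated D1D2KO cells, and 8.99, 9.13 and 8.87 in differentiated and 8.64, 8.66 and 8.59 in undifferentiated WT cells. It rose by 0.59 in D1D2KO and 0.37 in WT cells (SE 0.08; limma adjusted p = 1.29e-05 and 0.00186). The cytosolic Txn1 read 11.96, 11.94 and 11.95 in differentiated and 11.85, 11.76 and 11.79 in undifferentiated D1D2KO cells, and 12.01, 12.03 and 11.89 in differentiated and 11.82, 11.84 and 12.05 in undifferentiated WT cells, and was not called (0.15 and 0.07). The reductases went opposite ways. Txnrd2, the mitochondrial one, read 6.79, 6.62 and 6.499 in differentiated and 5.96, 6.05 and 5.65 in undifferentiated D1D2KO cells, and 6.503, 6.80 and 6.85 in differentiated and 6.12, 6.09 and 6.04 in undifferentiated WT cells. It rose by 0.75 in D1D2KO and 0.64 in WT cells (SE 0.11; limma adjusted p = 4.21e-05 and 0.000283). Txnrd1, the cytosolic one, read 7.72, 7.65 and 7.21 in differentiated and 8.07, 8.08 and 8.06 in undifferentiated D1D2KO cells, and 7.77, 7.41 and 7.67 in differentiated and 8.23, 8.29 and 8.18 in undifferentiated WT cells. It fell by 0.54 in D1D2KO and 0.62 in WT cells (SE 0.12; limma adjusted p = 0.00134 and 0.000506). Txnrd3, which also reduces glutathione, rose by 0.46 in D1D2KO and 0.43 in WT cells (limma adjusted p = 0.000501 and 0.00115). Txnip, which binds thioredoxin and blocks it, read 10.73, 10.64 and 10.45 in differentiated and 11.02, 11.01 and 10.88 in undifferentiated D1D2KO cells, and 10.81, 10.74 and 10.91 in differentiated and 10.99, 11.09 and 11.02 in undifferentiated WT cells. It fell by 0.36 in D1D2KO cells (SE 0.09; limma adjusted p = 0.00288) and was -0.21 and not called in WT cells (adjusted p = 0.0717), with a difference in response of -0.15 that did not pass the test (adjusted p = 0.755).

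In each of 5 pairs among these genes, the mitochondrial member had a larger change than its cytosolic relative, in both genotypes. Sod2 exceeded Sod1 by 1.37 in D1D2KO and 0.97 in WT cells, and Prdx3 exceeded Prdx1 by 1.52 and 1.18 and Prdx2 by 1.92 and 1.501. Txn2 exceeded Txn1 by 0.45 and 0.29, and Txnrd2 exceeded Txnrd1 by 1.29 and 1.25. Among the surrounding genes the order was the opposite for cytosolic Glrx, a glutaredoxin (1.01 in D1D2KO and 0.75 in WT cells), beside mitochondrial Glrx2 (0.26 and 0.27), and for the isocitrate dehydrogenases, cytosolic Idh1 (1.46 and 1.21) beside mitochondrial Idh2 (0.48 and 0.31). These pairs were put together after the values had been seen, the differences between genes were not tested, and the genes share all 12 samples.

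**Figure D4:**
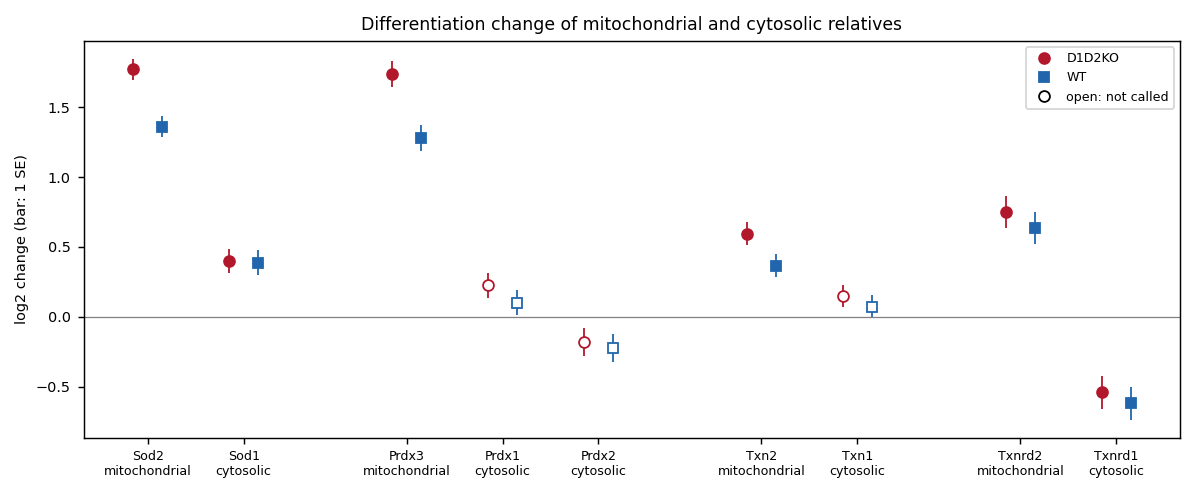
Log2 change on differentiation (y axis, differentiated minus undifferentiated) of mitochondrial genes beside their cytosolic relatives (x axis), in D1D2KO (red circles) and WT cells (blue squares), with bars of 1 SE and open symbols where the test was not passed. Sod2, Prdx3, Txn2 and Txnrd2 lie above 0 in both genotypes, while Txnrd1 lies at -0.54 in D1D2KO and -0.62 in WT cells.

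Of 12 thioredoxin-domain and thioredoxin-like proteins 5 rose and 2 fell in D1D2KO cells, and 4 rose and 2 fell in WT cells. Txndc16, an endoplasmic reticulum protein, read 6.99, 7.02 and 6.77 in differentiated and 7.83, 7.87 and 7.53 in undifferentiated D1D2KO cells, and 7.16, 6.80 and 7.24 in differentiated and 7.70, 7.83 and 7.81 in undifferentiated WT cells. It fell by 0.81 in D1D2KO and 0.71 in WT cells (SE 0.12; limma adjusted p = 2.43e-05 and 0.000128). Txnl4b, a relative of a splicing factor, read 7.07, 7.11 and 7.02 in differentiated and 6.39, 6.63 and 6.61 in undifferentiated D1D2KO cells, and 7.16, 7.22 and 6.92 in differentiated and 6.75, 6.76 and 6.70 in undifferentiated WT cells, rises of 0.52 and 0.37 (SE 0.09; limma adjusted p = 0.000191 and 0.00460). States were apart for both genes.

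The remaining changes in this class were under 0.51 in size. Txndc12, an oxidoreductase of the endoplasmic reticulum, read 8.83, 8.86 and 8.75 in differentiated and 8.25, 8.43 and 8.26 in undifferentiated D1D2KO cells, and 8.78, 8.83 and 8.81 in differentiated and 8.48, 8.54 and 8.64 in undifferentiated WT cells. It rose by 0.50 in D1D2KO cells (limma adjusted p = 6.79e-05) and 0.25 in WT cells, a WT call that ended without WT undifferentiated replicate 1 (0.0891) or 2 (0.0598). Txndc5, a disulfide isomerase, read 9.48, 9.34 and 9.24 in differentiated and 9.74, 9.66 and 9.71 in undifferentiated D1D2KO cells, and 9.46, 9.50 and 9.35 in differentiated and 9.68, 9.74 and 9.70 in undifferentiated WT cells. It fell by 0.35 in D1D2KO cells (limma adjusted p = 0.00209) and 0.27 in WT cells, a WT call that ended without WT undifferentiated replicate 2 (0.0539) or WT differentiated replicate 3 (0.0646). Txndc17, a cytosolic thioredoxin-related protein, read 10.15, 10.19 and 10.48 in differentiated and 9.96, 10.11 and 9.97 in undifferentiated D1D2KO cells, and was not called at 0.26 in D1D2KO and 0.21 in WT cells. Txndc15 rose by 0.43 in D1D2KO cells and 0.27 in WT cells (limma adjusted p = 0.000324 and 0.0144), a WT call that ended without WT differentiated replicate 2 (0.0537). Txnl1, a thioredoxin-like protein bound to the proteasome, rose by 0.33 in D1D2KO cells (limma adjusted p = 0.00557) and 0.27 in WT cells, a WT call that ended without WT undifferentiated replicate 3 (0.0755) or WT differentiated replicate 2 (0.0916) or 3 (0.0767). Txndc9 changed by 0.27 in D1D2KO cells (limma adjusted p = 0.0419), a call that ended without D1D2KO undifferentiated replicate 1 (0.0737) or 3 (0.208) or D1D2KO differentiated replicate 1 (0.121) or 2 (0.107). It also ended with the mean of the Txndc9 probe sets, the further one of which gave 0.17 in D1D2KO cells. Txndc2, Txndc8, Txndc11 and Txnl4a were not called.

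Hmox1, the inducible haem oxygenase, read 10.27, 9.99 and 9.96 in differentiated and 8.79, 8.72 and 8.65 in undifferentiated D1D2KO cells, and 9.84, 9.85 and 9.94 in differentiated and 8.91, 9.01 and 8.95 in undifferentiated WT cells. All differentiated samples lay above all undifferentiated ones, and Hmox1 rose 2.56-fold in D1D2KO and 1.90-fold in WT cells (1.35 and 0.92, SE 0.09; limma adjusted p = 1.89e-09 and 3.34e-07). The constitutive Hmox2 read 8.56, 8.51 and 8.38 in differentiated and 8.31, 8.25 and 8.06 in undifferentiated D1D2KO cells, and 8.44, 8.56 and 8.54 in differentiated and 8.26, 8.38 and 8.49 in undifferentiated WT cells. Its change was 0.28 in D1D2KO cells (limma adjusted p = 0.0227), not called without D1D2KO undifferentiated replicate 3 (0.129) or D1D2KO differentiated replicate 1 (0.0851) or 2 (0.0644), and 0.14 and not called in WT cells. Nqo1, a quinone reductase and common NRF2 reporter gene, did not rise. It read 5.50, 5.29 and 5.10 in differentiated and 5.51, 5.36 and 5.39 in undifferentiated D1D2KO cells, and 5.51, 5.12 and 5.22 in differentiated and 5.53, 5.65 and 5.59 in undifferentiated WT cells. Its change was -0.13 and not called in D1D2KO cells. In WT cells it was -0.31 (limma adjusted p = 0.0398), a call that ended without undifferentiated WT replicate 1 (0.0598), 2 (0.120) or 3 (0.0802), or differentiated WT replicate 2 (0.155) or 3 (0.118). Nqo2 was not called.

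Between the genotypes fewer of the 64 genes differed. In differentiated cells 10 were called, 3 higher and 7 lower in D1D2KO than in WT, where 13.7% of all genes were called, 6.25% higher and 7.42% lower. That count was 5 without WT differentiated replicate 2 and 6 without D1D2KO differentiated replicate 1 or 2. In undifferentiated cells 9 were called and all were lower in D1D2KO, where 8.02% of all genes were called, 4.40% higher and 3.62% lower, and 5 were called without WT undifferentiated replicate 2 or D1D2KO undifferentiated replicate 1 or 3. The median difference was -0.06 in differentiated and -0.11 in undifferentiated cells, beside 0.03 and 0.02 over all genes. At an unadjusted p under 0.05 limma had 9 higher and 16 lower in differentiated D1D2KO cells, where 17.1% of all genes were higher and 14.3% lower. It had 2 higher and 19 lower in undifferentiated D1D2KO cells, where 16.7% of all genes were higher and 11% lower. Lower in both states were Gstm2, Gstm5, Gstm6 and Gstm7, which are 57.1% of the lower genes in differentiated and 44.4% of those in undifferentiated cells, where over all genes the shares were 23.9% and 48.9%.

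The higher genes in differentiated D1D2KO cells were Mgst2 (0.69, SE 0.10; limma adjusted p = 0.000433), Mgst3 (0.47, SE 0.13; adjusted p = 0.0297) and Gstz1 (0.39, SE 0.10; adjusted p = 0.0233). The Mgst2 call held without each of the 6 differentiated samples in turn. That of Mgst3 ended with only the 2 groups compared (limma adjusted p = 0.0671) and without WT differentiated replicate 2 (limma adjusted p = 0.123) or D1D2KO differentiated replicate 1 (0.117) or 2 (0.0648), and that of Gstz1 without WT differentiated replicate 2 (0.0809) or D1D2KO differentiated replicate 1 (0.0821) or 2 (0.0855). In the same comparison 6 of 9 adipocyte markers were higher in D1D2KO cells, with a median of 0.41, and the log2 of their summed signal was 14.27 to 14.47 in differentiated D1D2KO against 13.998 to 14.15 in differentiated WT cells. Their part in these 3 results was not tested.

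The lower genes in differentiated D1D2KO cells were the 4 mu-class transferases and the peroxidases Gpx1, Gpx3 and Gpx8. Gpx1 was 0.53 below WT (-0.53, SE 0.09; limma adjusted p = 0.00138), a call that held without each of the 6 samples. Gpx3 was lower by 0.39 (-0.39, SE 0.10; limma adjusted p = 0.0198), which ended without WT differentiated replicate 2 (0.0848) or D1D2KO differentiated replicate 1 (0.0625), after quantile normalization (0.0694) and with only the 2 groups compared (0.0685). Gpx8 was lower by 0.34 (-0.34, SE 0.09; limma adjusted p = 0.0265), which ended without WT differentiated replicate 2 (0.113) or D1D2KO differentiated replicate 2 (0.0542) or 3 (0.0767), and with only the 2 groups compared (0.0754). Fibroblast markers were lower in the same comparison, 4 of 9, with a median of -0.25. Their log2 summed signal was 14.33 to 14.47 in differentiated D1D2KO and 14.65 to 14.74 in differentiated WT cells. All 4 smooth muscle markers were lower too, with a median of -1.86. Their log2 summed signal was 11.86 to 11.94 in differentiated D1D2KO against 12.97 to 13.09 in differentiated WT cells. The part of either marker set was not tested.

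The 7 mu-class genes Gstm5, Gstm7, Gstm6, Gstm3, Gstm2, Gstm1 and Gstm4 neighbour each other on chromosome 3 in this order. In undifferentiated cells 6 of the 7 were lower in D1D2KO than in WT, 5 without WT undifferentiated replicate 2, D1D2KO undifferentiated replicate 1 or D1D2KO undifferentiated replicate 3, and in differentiated cells 4 of 7, but 2 without D1D2KO differentiated replicate 3 or WT differentiated replicate 3. Of 20 measured genes flanking them, 10 on each side, 3 were called in undifferentiated cells, all higher in D1D2KO (Ubl4b, Amigo1 and Sypl2), and 4 in differentiated cells (Csf1, Gpr61, Amigo1 and Sort1, 3 higher and 1 lower). Over all genes 8.02% were called in undifferentiated cells, 4.40% higher and 3.62% lower. In differentiated cells 13.7% of all genes were called, 6.25% higher and 7.42% lower. Mu-class transcripts are near-identical in parts, so 1 probe set may read several of them, and the 7 genes are not independent measurements. The smooth muscle markers were lower in the same comparisons, with a log2 summed signal of 11.86 to 11.94 in differentiated D1D2KO against 12.97 to 13.09 in differentiated WT cells and of 12.79 to 12.96 in undifferentiated D1D2KO against 13.45 to 13.50 in undifferentiated WT cells. Their part in the mu-class result was not tested.

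The mean signal of Gstm6 lay under the lower quartile of all genes (4.57). It read 3.78, 4.29 and 3.57 in differentiated D1D2KO against 4.44, 4.78 and 4.85 in differentiated WT cells, and 3.76, 3.71 and 3.60 in undifferentiated D1D2KO against 5.61, 5.30 and 5.00 in undifferentiated WT cells. The genotypes did not overlap in either state, and all but 1 of the 6 D1D2KO values lie under the lower quartile of their arrays' range, 4.10 to 4.26, so the size of the difference is not measured. The difference was -0.81 in differentiated (SE 0.17; limma adjusted p = 0.00502) and -1.61 in undifferentiated cells (adjusted p = 1.52e-05). In WT cells Gstm6 fell by 0.61 on differentiation (limma adjusted p = 0.00794), a call that ended without WT undifferentiated replicate 1 (0.0571), and in D1D2KO cells it was 0.19 and not called.

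Gstm5, whose promoter holds the core and which is expressed in brain and testis, read 7.87, 7.83 and 7.74 in differentiated D1D2KO against 8.20, 8.45 and 8.33 in differentiated WT cells, and 8.64, 8.66 and 8.53 in undifferentiated D1D2KO against 8.86, 9.02 and 9.03 in undifferentiated WT cells. It was the 1 mu-class gene that fell on differentiation in both genotypes, by 0.80 in D1D2KO and 0.64 in WT cells (SE 0.09; limma adjusted p = 8.81e-07 and 1.43e-05). Markers of several cell types fell in the same comparisons, while all 9 adipocyte markers rose. In D1D2KO cells 8 of 9 fibroblast, 7 of 8 macrophage, 6 of 6 neural and glial and 4 of 4 smooth muscle markers fell. In WT cells these were 7 of 9, 7 of 8, 5 of 6 and 3 of 4. The log2 summed signal of the neural and glial markers was 8.02 to 8.13 in differentiated and 9.66 to 9.74 in undifferentiated D1D2KO cells. In WT cells it was 8.003 to 8.41 in differentiated and 9.38 to 9.48 in undifferentiated cells. The part of these marker sets was not tested. Gstm5 differed between the genotypes by -0.52 in differentiated (limma adjusted p = 0.000994) and -0.36 in undifferentiated cells (adjusted p = 0.0202), the last of which ended without WT undifferentiated replicate 2 (0.0991) or D1D2KO undifferentiated replicate 1 (0.0558) or 3 (0.105). Gstm7 read 5.94, 5.93 and 5.80 in differentiated D1D2KO against 6.25, 6.10 and 6.13 in differentiated WT cells, and 5.65, 5.58 and 5.61 in undifferentiated D1D2KO against 6.24, 6.01 and 6.02 in undifferentiated WT cells. It was lower by 0.47 in undifferentiated cells (-0.47, SE 0.08; limma adjusted p = 0.00367). The difference of -0.27 in differentiated cells (limma adjusted p = 0.0460) ended without any 1 of the 6 samples, at adjusted p from 0.0633 without D1D2KO differentiated replicate 1 to 0.133 without D1D2KO differentiated replicate 3. On differentiation Gstm7 rose by 0.28 in D1D2KO cells (adjusted p = 0.0143), a call that ended without D1D2KO undifferentiated replicate 2 (0.0537) or D1D2KO differentiated replicate 1 (0.0510) or 2 (0.0527), and was 0.07 and not called in WT cells.

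Gstm1, Gstm2 and Gstm3 rose on differentiation, and in undifferentiated cells each was lower in D1D2KO than in WT. Gstm1 read 8.76, 8.76 and 8.65 in differentiated D1D2KO against 8.72, 8.76 and 8.85 in differentiated WT cells, which overlap, and 7.92, 8.07 and 8.12 in undifferentiated D1D2KO against 8.56, 8.47 and 8.41 in undifferentiated WT cells, which do not. It rose by 0.69 in D1D2KO and 0.29 in WT cells (SE 0.08; limma adjusted p = 2.96e-06 and 0.0104), with a genotype difference of -0.45 in undifferentiated cells (adjusted p = 0.00469) and a difference in response of 0.39 that did not pass the test (adjusted p = 0.119). Gstm2 read 8.16, 8.09 and 7.88 in differentiated D1D2KO against 8.39, 8.29 and 8.51 in differentiated WT cells, and 7.72, 7.63 and 7.62 in undifferentiated D1D2KO against 8.09, 8.20 and 8.18 in undifferentiated WT cells. Its genotype differences were -0.35 in differentiated (limma adjusted p = 0.0167; not called without WT differentiated replicate 3, 0.0582, or D1D2KO differentiated replicate 3, 0.0619) and -0.50 in undifferentiated cells (adjusted p = 0.00383). Gstm2 rose by 0.38 in D1D2KO cells (limma adjusted p = 0.00227), and by 0.24 in WT cells with a call (0.0474) that ended without undifferentiated WT replicate 1 (0.155), 2 (0.0728) or 3 (0.0771), or differentiated WT replicate 1 (0.0862) or 3 (0.180).

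Gstm3 read 6.06, 6.003 and 5.80 in differentiated D1D2KO against 6.05, 6.06 and 6.22 in differentiated WT cells, and 5.32, 5.42 and 5.43 in undifferentiated D1D2KO against 5.87, 5.83 and 5.79 in undifferentiated WT cells. Its genotype difference of -0.44 in undifferentiated cells (limma adjusted p = 0.00659) was not shared by a dimmer Gstm3 probe set (mean 4.48), which gave 0.12, and the mean of both lost the call (adjusted p = 0.247). On differentiation Gstm3 rose by 0.57 in D1D2KO cells (limma adjusted p = 4.08e-05) and by 0.28 in WT cells. The WT call ended without WT undifferentiated replicate 3 (0.0588) or WT differentiated replicate 3 (0.0863), and with the mean of both probe sets (0.233). The dimmer Gstm3 probe set gave 0.15 in D1D2KO and 0.02 in WT cells. Gstm4 read 7.99, 7.87 and 7.44 in differentiated D1D2KO against 7.94, 7.88 and 8.04 in differentiated WT cells, and 7.07, 7.23 and 6.73 in undifferentiated D1D2KO against 7.31, 7.41 and 7.41 in undifferentiated WT cells. It was not called between genotypes (limma adjusted p = 0.347 and 0.0953) and rose by 0.76 in D1D2KO and 0.58 in WT cells (SE 0.13; adjusted p = 0.000189 and 0.00249).

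**Figure D5:**
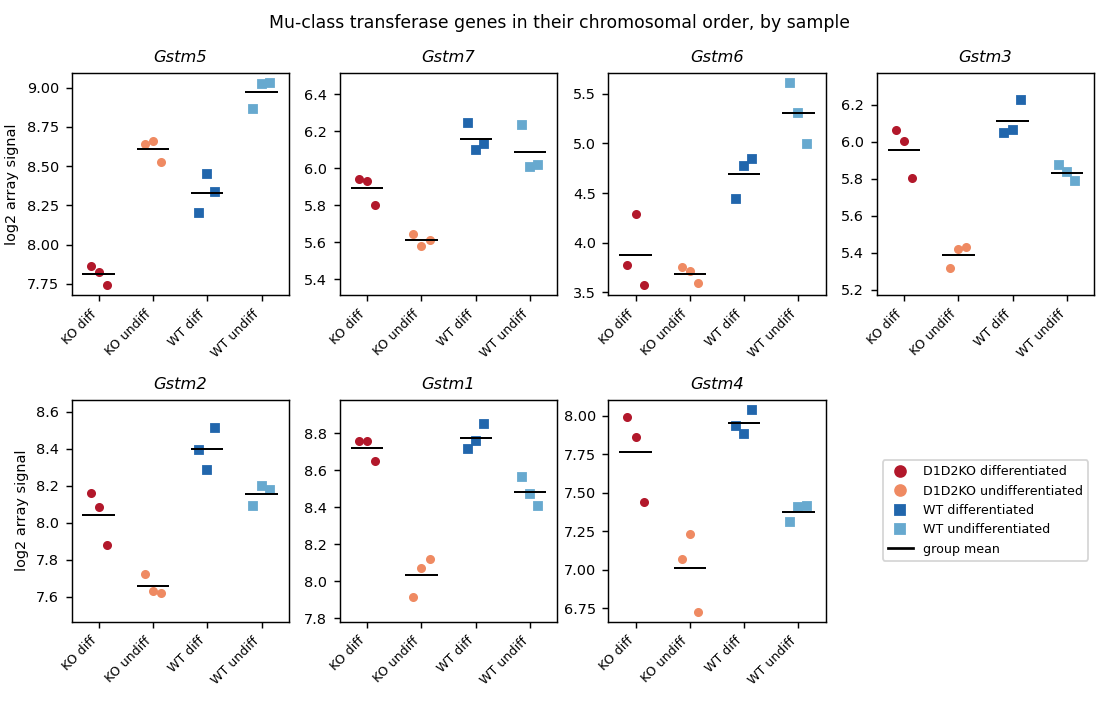
Log2 array signal (y axis, a separate scale for each gene) of the 7 mu-class genes in their chromosomal order, in each sample of the 4 groups (x axis), with a bar at each group mean; D1D2KO samples are circles and WT samples squares. In undifferentiated cells the D1D2KO samples lie below the WT samples for the probe set used of all 7 genes, as for Gstm1 at 7.92 to 8.12 against 8.41 to 8.56. A dimmer Gstm3 probe set, not plotted, gave a difference of 0.12 there.

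The other genes called lower in undifferentiated D1D2KO cells were Gstk1, Prdx3 and Prdx4. Gstk1 differed by -0.43 (limma adjusted p = 0.0435), Prdx3 by -0.31 (adjusted p = 0.0488) and Prdx4 by -0.30 (adjusted p = 0.0375). Prdx4 read 8.66, 8.75 and 8.49 in undifferentiated D1D2KO against 8.90, 8.98 and 8.91 in undifferentiated WT cells, without overlap. None of these calls was stable. Those of Gstk1 and Prdx3 ended without any 1 of the 6 undifferentiated samples, at limma adjusted p from 0.0687 (without WT undifferentiated replicate 1) to 0.173 (without WT undifferentiated replicate 2) for Gstk1, and from 0.0717 (without WT undifferentiated replicate 3) to 0.208 (without D1D2KO undifferentiated replicate 3) for Prdx3. That of Prdx4 ended without WT undifferentiated replicate 1 (0.0876), 2 (0.155) or 3 (0.0530), or D1D2KO undifferentiated replicate 1 (0.0881) or 3 (0.184). In differentiated cells Prdx3 was 0.15 and Gstk1 -0.11, not called. Of 9 adipocyte markers 2 were called lower and 1 higher in undifferentiated D1D2KO than in undifferentiated WT cells. The log2 of their summed signal was 9.07 to 9.10 in undifferentiated D1D2KO against 9.30 to 9.37 in undifferentiated WT cells, and their part was not tested.

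Genes around these enzymes were counted from a list of 75, of which 72 were measured. On differentiation 29 rose and 15 fell in D1D2KO cells, and 29 rose and 14 fell in WT cells, with medians of 0.10 in both. These are 61.1% of the 72 genes in D1D2KO and 59.7% in WT cells, where 36.7% and 34.1% of all genes were called. Over all genes 15.4% rose and 21.2% fell in D1D2KO cells, and 14.7% rose and 19.4% fell in WT cells. The 7 measured genes of NADPH supply all changed in both genotypes, 6 up and 1 down, with medians of 1.63 in D1D2KO and 1.42 in WT cells. Malic enzyme Me1 rose by 2.79 and 2.81 and transketolase Tkt by 1.69 and 1.77, while the mitochondrial transhydrogenase Nnt fell by 1.04 and 0.99. The endoplasmic reticulum oxidase Ero1a rose by 2.98 in D1D2KO and 1.98 in WT cells, and catalase Cat by 2.16 and 2.02. Cybb, the phagocyte oxidase subunit, fell by 1.74 in D1D2KO and 1.58 in WT cells. It moved with the macrophage markers, whose log2 summed signal was 11.90 to 11.94 in differentiated and 13.05 to 13.14 in undifferentiated D1D2KO cells, and 11.94 to 12.08 in differentiated and 13.13 to 13.19 in undifferentiated WT cells, and their part was not tested. The protein disulfide isomerase P4hb was -0.08 in D1D2KO and -0.12 in WT cells and ferritin light chain Ftl1 -0.02 and -0.09, not called. Of 9 regulators, 2 rose and 2 fell in D1D2KO and 1 rose and 2 fell in WT cells, and Nfe2l2, which encodes NRF2 and was looked up after the other values had been seen, was -0.16 in both and not called.

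Between the genotypes 8 of the 72 genes were called in each state and all were lower in D1D2KO, where 7.42% of all genes were called lower in differentiated and 3.62% in undifferentiated cells, and 6.25% and 4.40% higher. At an unadjusted p under 0.05 limma had 1 higher and 13 lower in differentiated and 2 higher and 16 lower in undifferentiated cells, beside the shares of all genes given above for that threshold. In differentiated cells the lowest were the hydrogen peroxide source Nox4 (-1.09), the aldo-keto reductase Akr1b8 (-0.61), Nnt (-0.56) and Selenow (-0.54), a selenoprotein. In undifferentiated cells they were Ero1a (-0.67), the metallothionein Mt2 (-0.63), the methionine sulfoxide reductase Msrb1 (-0.61) and Akr1b8 (-0.52). The undifferentiated call of Ero1a (limma adjusted p = 0.0248) ended without WT undifferentiated replicate 1 (0.0717) or 2 (0.103) or D1D2KO undifferentiated replicate 1 (0.0621) or 3 (0.120), and that of Akr1b8 (adjusted p = 0.0177) without WT undifferentiated replicate 2 (0.0931) or D1D2KO undifferentiated replicate 3 (0.0843). The response differed between the genotypes for Nox4, by -0.65 (SE 0.11; limma adjusted p = 0.00702), which held without each sample in turn. For Ero1a it differed by 1.00 (SE 0.24; limma adjusted p = 0.0440), a call that ended without any 1 of 10 samples, with adjusted p up to 0.131 without D1D2KO undifferentiated replicate 3, and held without WT differentiated replicate 3 or D1D2KO differentiated replicate 3.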

How the data were processed

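RNA from 12 samples of embryonic fibroblasts was measured on a biotin-labelled single-colour array. The table the authors deposited holds 35556 probe sets, with values from 1.15 to 14.17 that were taken as log2 signals normalized between arrays. The base is inferred from the values, and the sources used here state neither how the authors summarised the scans nor detection calls. The number of arrays limits the precision. Titles gave each sample its group and number.

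By the platform annotation, 21789 probe sets list 1 gene, 1621 several and 12146 none. Each gene was read by its brightest probe set, by the mean of the 12 samples, which gave 19938 genes, and 0 genes were removed for low signal. The 64 genes follow a pattern of symbols, and all 64 matched the RefSeq table. The genes, the lists around them and the markers were chosen with earlier results of these data known.

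All samples entered 1 linear model of 4 group means (lmFit and eBayes of limma 3.58.1, R 4.3.3), with 5 two-sided contrasts: differentiation in D1D2KO, differentiation in WT, D1D2KO against WT in differentiated and in undifferentiated cells, and the D1D2KO response minus the WT response. Adjustment was by Benjamini-Hochberg over all 19938 genes. The fit was tested on simulated data. Values per sample are given for up to 3 genes per role with the largest called change and up to 2 with the highest signal. Those of further genes called between the genotypes, of the rest of the mu class and of Gstp1 neighbours were added after their values were seen. From the list of 75 surrounding genes up to 4 called with the largest change per contrast and up to 2 uncalled with the highest signal are named; Ggt1, G6pdx and Akr1b3 were not measured by a probe set with 1 gene.

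Alternatives were centring, quantile normalization, only the brighter genes (median signal or more), averaged probe sets, trended and robust eBayes, only the groups compared, a block for the replicate number, and each sample left out in turn. Same-numbered samples deviated together, all 3 correlations above 0.1, only between differentiated and undifferentiated D1D2KO cells (0.101 to 0.176, against -0.147 to 0.0522 for different numbers). These correlations are low, so the number may or may not pair samples there. The reported tests treated all samples as unpaired, and the block was used only as an alternative.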

Additional observations from a re-analysis of the deposited data

Results flagged for a closer look

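The differentiation response of Gstz1 differed between the genotypes by 0.64 on the log2 scale (D1D2KO minus WT; limma, Benjamini-Hochberg adjusted p = 0.0421), with a rise of 3.49 in D1D2KO and 2.86 in WT cells. It is listed here because the genotypes differed in an interaction test. The size stayed between 0.57 and 0.77 without each sample in turn, while the call ended without 9 of the 12 samples. Groups of 3 samples were not tested for a single sample far from the others.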

How the results depend on the processing

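Of 104 calls 73 held under every alternative, 31 were lost under at least 1, and 0 called values changed sign. In D1D2KO differentiation the count of 43 ran from 38 to 43 with a sample left out, and in WT the count of 41 ran from 32 to 39. Between differentiated genotypes the count of 10 fell to 4 with only the groups compared, and ran from 5 to 11 with a sample left out (5 without WT differentiated replicate 2, 6 without D1D2KO differentiated replicate 1 or 2). Between undifferentiated genotypes the count of 9 ran from 5 to 8 (5 without WT undifferentiated replicate 2 or D1D2KO undifferentiated replicate 1 or 3). The count of 4 lower mu-class genes in differentiated cells was 2 without D1D2KO differentiated replicate 3 or WT differentiated replicate 3. For the difference in response the count of 1 became 0 after centring, 2 after quantile normalization, 4 with trended and robust eBayes and 7 with genes at or above the median signal only, where fewer genes are adjusted for, and ran from 0 to 4 with a sample left out. Genes gained were among Gpx3, Gstm1, Gstm6, Hmox1, Mgst2, Mgst3, Prdx3 and Sod2. With the replicate number as a block the counts were 44, 40, 9, 8 and 1, and the block ended 3 calls (Gsta4 in WT, Gstm7 between differentiated and Prdx3 between undifferentiated genotypes), gained 1 (Gsto1 in D1D2KO differentiation) and changed no other call of the 64 genes. With only the groups compared, the calls of Gpx3, Gpx8, Gstm2, Gstm7, Gstz1 and Mgst3 between differentiated genotypes ended, as did those of Gpx7, Gss, Gsta4, Gstm2 and Txnl1 in WT differentiation. Quantile normalization ended those of Gpx3 between differentiated genotypes, Prdx3 and Prdx4 between undifferentiated genotypes, and Gsta4 and Nqo1 in WT differentiation. Among the uncalled values recomputed, those that changed sign were Gstm6 in D1D2KO differentiation (-0.014 without D1D2KO differentiated replicate 2, with a range up to 0.34), Prdx4 there (0.0029 without D1D2KO undifferentiated replicate 2, with a range down to -0.13), Sod3 in D1D2KO (-0.037 without D1D2KO undifferentiated replicate 1 and -0.067 without D1D2KO differentiated replicate 3, with a range up to 0.069) and WT differentiation (0.043 without WT undifferentiated replicate 1 and 0.076 without WT differentiated replicate 3, with a range down to -0.16), and, between differentiated genotypes, Gstk1 (0.013 without WT differentiated replicate 2 and 0.046 without D1D2KO differentiated replicate 3, with a range down to -0.19), Gstm1 (0.020 after quantile normalization) and Gstm3 (0.047 with the mean of its probe sets). The cause was not tested.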
